A study of Mus musculus with 2 samples.

Results

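The cells described here are 214 spleen cells that carry a stem cell name and a dendritic cell name together. In the deposited cell table they belong to the spleen library and to the cluster named HSC-1, and their reference label is "Dendritic cell_Cst3 high(Mammary-Gland-Virgin)". They make up 214 of the 1539 spleen HSC-1 cells, of the 6546 spleen cells and of the 16634 cells of both libraries, and are called HSC-1 dendritic cells below. Cluster and label were both made from the same RNA counts, so every difference between such groups is a description and carries no test.

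The study used flow cytometry to collect LSK cells, the gate of cells with little or no lineage staining, Sca1 and high c-Kit that holds blood stem cells and early progenitors, from the bone marrow and the spleen of C57BL/6 mice. All mice carried an orthotopic liver tumour of Hepa1-6 cells, a mouse hepatoma line, injected into the left liver lobe at 6 to 8 weeks of age. Each tissue gave 1 library of the 10x 3′ droplet assay, which counts unique molecular identifiers (UMIs), and the number of mice behind each is not stated. The comparisons across many genes lie within the spleen library, whose cells share the tumour and the sort, and bone marrow values are only set beside them.

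Conventional dendritic cells take up antigen and show it to T cells on MHC class II, a pair of chains (H2-Aa with H2-Ab1 in this strain) assembled on the invariant chain Cd74 under the control of the coactivator Ciita. The subset called cDC1, which needs the transcription factors Irf8 and Batf3 and carries Xcr1 and Clec9a, also presents antigen on MHC class I and is known for priming CD8 T cells against tumours. Blood stem cells, by contrast, depend on regulators such as Hlf and Mecom and are known as mostly quiescent.

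Promoters of classical class II genes carry a box called Y, which reads CCAAT or, on the other strand, ATTGG. RNA of H2-Aa and H2-Eb1 was far higher in the HSC-1 dendritic cells than in most other cells of their cluster. For this reason the 150 bases before the start sites of both genes (RefSeq, GRCm38.p6) are shown. They lie at chr17:34287824-34287973 (minus strand) and chr17:34305717-34305866 (plus strand), and capitals mark CCAAT and ATTGG.
H2-Aa: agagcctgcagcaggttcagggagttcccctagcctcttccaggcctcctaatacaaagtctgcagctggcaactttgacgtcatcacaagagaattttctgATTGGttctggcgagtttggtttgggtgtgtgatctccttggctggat
H2-Eb1: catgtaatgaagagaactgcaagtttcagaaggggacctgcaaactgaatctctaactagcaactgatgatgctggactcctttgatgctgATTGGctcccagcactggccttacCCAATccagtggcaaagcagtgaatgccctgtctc
The first of these boxes begins 48 bases before the start of H2-Aa and 59 bases before that of H2-Eb1, which has a second at 35 bases. Of the 14 genes of the class II presentation list, 11 matched an entry, and 8 of these held the box within 300 bases (250 before to 50 after the start). The same letters stand in 37.4% of all 32851 windows of that length, so a match alone marks little.

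Within the spleen, 1820 cells carried the dendritic label, and 1268 of them lay in cluster MP, 214 in HSC-1, 211 in DCP and 71 in HSC-3. In HSC-1 the label took 13.9% of the spleen cells (exact Clopper-Pearson interval 12.2 to 15.7%). The bone marrow library had 59 cells of this label, all in MP, and 0 of its 5049 HSC-1 cells had it, which allows a share of up to 0.0594% by a limit of 3 counts, used for each count of 0 below (exact upper bound 0.0730%). Tissue, sort and library cannot be told apart in that contrast. A second reference label in the table called 207 of the 214 cells Mono-3, as it did 1247 of the 1268 MP dendritic cells. It called 823 of the 831 spleen HSC-1 cells with the label "Multipotent progenitor_Ctla2a high(Bone-Marrow_c-kit)" (HSC-1 multipotent cells below) HSC-1.

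The HSC-1 dendritic cells held 2274035 UMIs, with a median of 10273 per cell (2062 to 25757). Median UMIs were 10828 in the MP dendritic cells, 6890 in the HSC-1 multipotent cells and 16173 in the DCP dendritic cells. Mitochondrial genes gave a median of 2.69% of UMIs, against 3.23% in MP dendritic and 3.31% in HSC-1 multipotent cells. Both libraries shared 16 cell barcode sequences, and none belonged to these cells. UMIs were summed over the cells of a group and scaled to the group's total as CPM (UMIs of a gene for each 1000000 UMIs), and intervals are exact, at 95%, and cover counting error only. With 1 library there is no replicate, so no difference was tested.

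The dendritic label was made from these counts, so the marker levels below describe the cells it chose and do not test it. Each of the 214 cells had UMIs of Cd74, H2-Aa, H2-Ab1, H2-Eb1 and Cst3, which encodes the protease inhibitor cystatin C. Cd74 stood at 17982 CPM (17808 to 18157), against 20133 in MP dendritic, 17333 in DCP dendritic and 115 in HSC-1 multipotent cells. H2-Eb1, a class II beta chain, stood at 7940 CPM (7824 to 8056), against 8983, 7330 and 49.7 in the same order. The 3 dendritic groups thus lay close together on class II, and the multipotent cells far below. Cst3 stood at 14009 CPM, against 16526, 13276 and 392. Ciita followed the same order, at 399 CPM (373 to 426) against 487, 340 and 5.73.

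The partner genes of loading went with the chains. H2-DMa, a chain of the complex that exchanges peptides on class II, stood at 950 CPM (911 to 991), against 1096 in MP dendritic, 918 in DCP dendritic and 224 in HSC-1 multipotent cells. Its partner H2-DMb1 stood at 444 CPM (417 to 472), against 495, 497 and 40.6. Ctss, the protease that trims the invariant chain, stood at 545 CPM (515 to 576), against 558, 526 and 75.3. Each was thus within 1.5-fold among the dendritic groups.

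Core class II genes gave a median of 4.48% of a cell's UMIs, and the lowest of the 214 cells had 1.62%. The median was 4.84% in MP dendritic, 4.35% in DCP dendritic and 0.0209% in HSC-1 multipotent cells. Among the multipotent cells 22.7% had a UMI of H2-Eb1, and Cd74 and H2-Eb1 UMIs stood there at a ratio of 2.31, against 2.26 in the HSC-1 dendritic cells. The lowest HSC-1 dendritic cell, at 1.62%, lay above the highest multipotent cell, at 1.35%. Both labels were made from the same counts, so this gap describes the choice of cells and tests nothing.

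The subset genes pointed to cDC1. Irf8 stood at 898 CPM (860 to 938) and Batf3 at 171 (154 to 189), against 16.5 and 1.52 in HSC-1 multipotent cells. Xcr1, the receptor for the chemokine Xcl1, stood at 208 CPM (190 to 228), against 302 in MP dendritic, 254 in DCP dendritic and 1.35 in multipotent cells. A UMI of Xcr1 was found in 84.1% of HSC-1 dendritic cells and 0.842% of multipotent cells. After each cell was thinned to 7100 UMIs, which left out 21 and 466 cells, the shares were 73.6% and 0.548%. Clec9a, a receptor for dead cells, stood at 227 CPM (208 to 248) against 0.843 in multipotent cells, and Cd8a at 106 against 0.674.

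Genes that conventional dendritic cells share were present as well. Itgax, the integrin known as CD11c, stood at 66.8 CPM (56.6 to 78.4), against 70.0 in MP dendritic, 54.4 in DCP dendritic and 1.52 in multipotent cells. Id2, a regulator of cDC1 development, stood at 983 CPM (943 to 1024), against 1223, 774 and 32.4. Zbtb46, a transcription factor of conventional dendritic cells, stood at 19.8 CPM (14.4 to 26.5), against 28.5, 22.6 and 0.674.

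Several defining markers of other dendritic subsets and lineages were at or near 0, while their whole lists were not. Of the cDC2 markers, Clec4a4 had 0 UMIs, Irf4 had 2, Sirpa had 3 and Cd209a had 5, all 5 in 1 cell. The plasmacytoid markers Spib and Siglech had 0 and 1 UMIs, and the migratory markers Ccr7 and Ccl22 had 0 each, which allows up to 1.32 CPM. Cd3e and C1qa, which mark T cells and macrophages, had 0 UMIs. Over the whole lists, summed levels were 171 CPM for 16 cDC2 genes (3 at 0), 286 CPM for 15 plasmacytoid genes (5 at 0), 225 CPM for 18 monocyte and macrophage genes (4 at 0) and 201 CPM for 14 B cell genes (6 at 0). The same sums were 159, 275, 204 and 208 CPM in MP dendritic cells. The 17 mast cell and basophil genes summed to 833 CPM with none at 0, against 768 in MP dendritic and 1545 in multipotent cells, and 13 megakaryocyte genes to 416 CPM (5 at 0), against 395 and 415. Their part in the results was not tested. The sum of 17 cDC1 genes was 4296 CPM, against 5955, 4309 and 342 CPM in MP dendritic, DCP dendritic and HSC-1 multipotent cells.

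The genes of the sort gate were present. Kit, the receptor of the c-Kit stain, stood at 170 CPM (153 to 188), against 188 in MP dendritic and 324 in HSC-1 multipotent cells. Ly6a, which encodes Sca1, stood at 124 CPM (110 to 139), against 144 and 119. Flt3, the receptor for the growth factor that expands dendritic cells, stood at 183 CPM, against 183 and 181. Ly6a and Flt3 thus differed little between the groups, and Kit was 1.91-fold lower than in the multipotent cells (1.71 to 2.13).

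**Figure D1:**
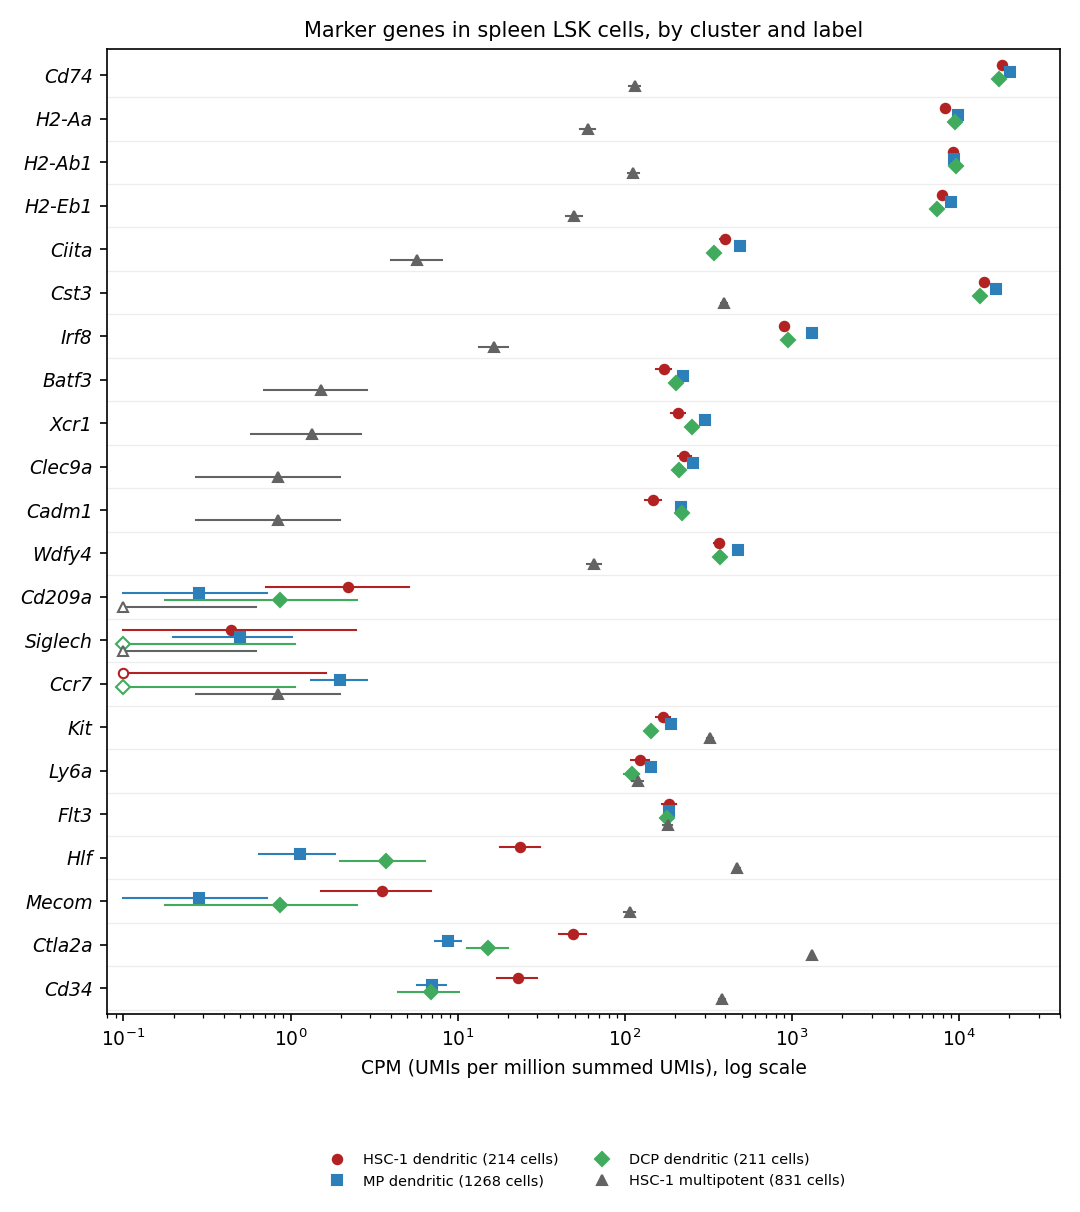
Levels of marker genes in CPM (log axis) in 4 groups of spleen LSK cells; points are levels of summed UMIs, bars are exact 95% Poisson intervals, and open symbols at the left edge mark 0 UMIs. The HSC-1 dendritic cells lie beside the MP and DCP dendritic cells for class II and cDC1 genes (Cd74 at 17982, 20133 and 17333 CPM), and the HSC-1 multipotent cells lie apart.

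RNA of stem cell regulators was low in these cells, whose cluster carries a stem cell name. Hlf stood at 23.7 CPM (17.8 to 31.0), 19.8-fold below the HSC-1 multipotent cells at 470 CPM (15.1 to 26.4). Mecom stood at 3.52 CPM against 107, and Ctla2a, which gives the multipotent label its name, at 48.8 against 1321. Cd34, a surface protein of progenitors, stood at 22.9 CPM against 380. Of 27 stem cell regulators, 25 were lower than in the multipotent cells, with a median log2 ratio of -3.10, as were 18 of 19 multipotent progenitor genes, with a median of -3.94. Both groups were chosen by labels made from the same counts, so these differences follow in part from that choice and test nothing. These counts and medians take in every list gene with a UMI, however sparse. Over the 6246 genes with a mean of 20 CPM or more in both groups together, the median was -0.25. Of these, 31.2% were lower by 1.5-fold, and their share below 0 is not given.

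What remained of the RNA of some progenitor genes was concentrated in few cells. Over 26 genes of these 2 lists with under 20 CPM in MP dendritic and at least 50 CPM in HSC-1 multipotent cells, a set chosen after the values were seen, the 214 cells had 1164 UMIs. Of these UMIs 83.7% lay in 19 cells, each with at least 22, and no other cell had more than 8. Over the whole lists the 19 cells held less, at 968 of 3074 UMIs of stem cell regulators and 988 of 2002 of multipotent progenitor genes. The 19 cells held all 54 UMIs of Hlf. A cut at 10 UMIs separates them from the other 195 cells, of which 1 lies at 8 or 9.

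The 19 cells carried dendritic and progenitor RNA at once. Their median was 16594 UMIs, against 10165 in the other 195. Core class II genes gave a median of 2.95% of their UMIs, against 4.63% in the others. Xcr1 stood at 122 CPM (86.9 to 167) and Cd74 at 12022, with Hlf at 169 CPM and Ctla2a at 329. Over the 26 genes that chose them, their median level was 35.7% of that in the multipotent cells. Scrublet, a program that marks likely doublets (droplets with 2 cells), marked 18 of the 19 and 0 of the other 195, which allows up to 1.54% of them by the limit of 3 counts (exact upper bound 1.87%). It marked 18 of all 214 cells (8.41%, 5.06 to 12.97%), against 19 of 1268 MP dendritic cells and 2.84% of the spleen library. The part of such droplets in the cluster name was not tested.

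Outside the 19 cells, Hlf had 0 UMIs, which allows up to 1.53 CPM, and Ctla2a stood at 3.07 CPM and Cd34 at 5.63. These genes are among the 26 that set the 19 cells apart, so their low values elsewhere follow from that choice. Among the MP dendritic cells, 17 (1.34%) also reached 10 UMIs of the 26 genes, as did 4 of the DCP (1.90%) and 8 of the HSC-3 dendritic cells (11.3%). The share in the HSC-3 dendritic cells was thus near the 8.88% of the HSC-1 dendritic cells. At 7100 UMIs per cell these 2 shares were 8.70% and 9.84%.

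**Figure D2:**
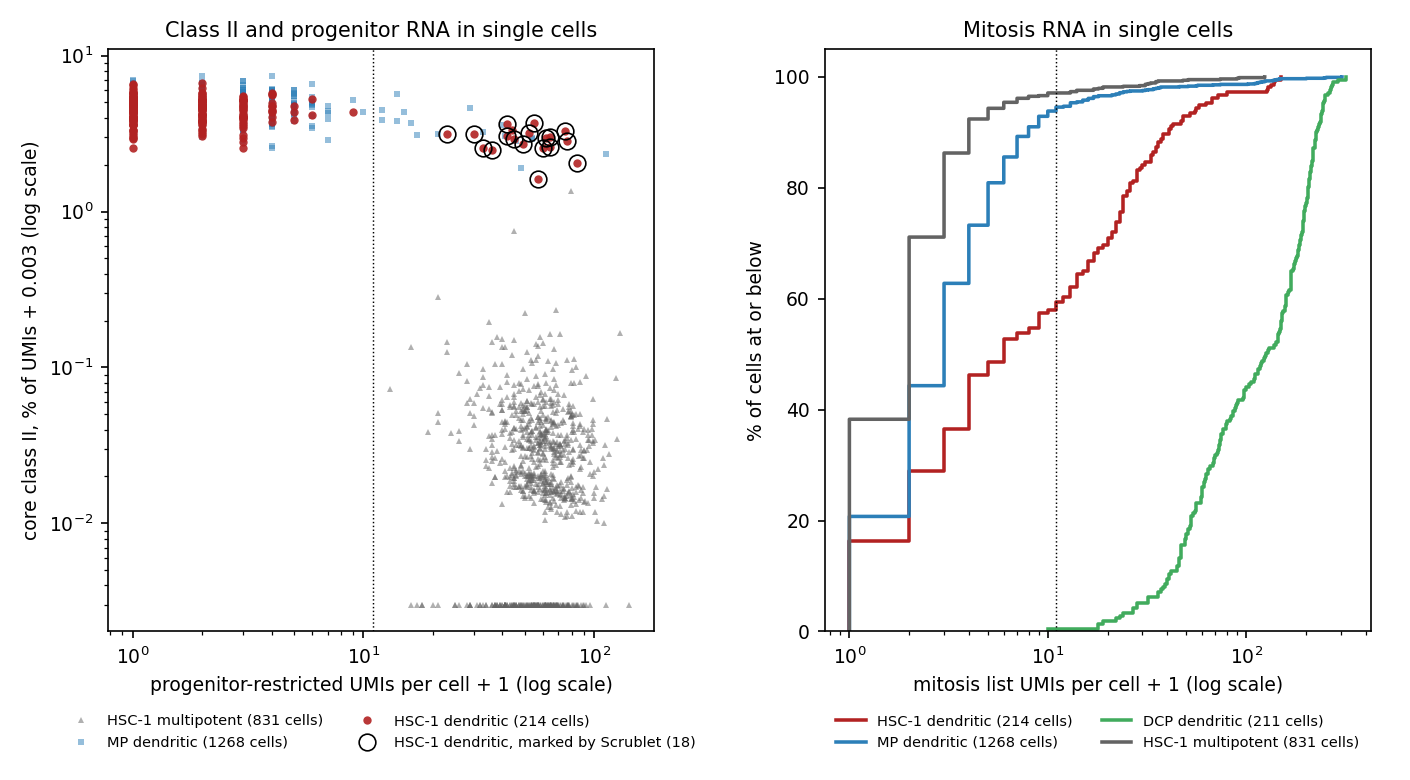
Left, core class II genes as % of UMIs (log axis, 0.003 added) against UMIs of the 26 progenitor genes per cell (log axis, 1 added), 1 point per cell, with rings on the 18 HSC-1 dendritic cells marked by Scrublet. Right, cumulative % of cells by UMIs of the mitosis list per cell (log axis, 1 added), 1 line per group; dotted lines mark 10 UMIs, which 19 of 214 HSC-1 dendritic cells reach for progenitor genes and 90 for mitosis genes.

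The closest cells among the spleen groups compared were the MP dendritic cells. Genes were compared where the mean of both groups' levels was 20 CPM or more, so a gene could be far lower in 1 of them. Of 5424 such genes, 55 stood 2-fold or more above MP dendritic cells (1.01%), and 2 stood 2-fold or more below (0.0369%). The median log2 ratio was 0.07, and -0.06 under TMM scaling, which left 45 genes higher and 3 lower. At 1.5-fold the counts were 150 higher (2.77%) and 35 lower (0.645%). By Pearson correlation of log expression over 6485 genes with the summed profiles of 21 spleen groups of at least 50 cells, 167 of the 214 cells were closest to the MP dendritic profile, 33 to DCP dendritic, 7 to MP cells with a macrophage label, 6 to HSC-3 dendritic and 1 to HSC-2 multipotent cells. The median correlation was 0.812 with the MP dendritic profile and 0.809 with that of the MP cells with a macrophage label. None was closest to any of the 4 HSC-1 profiles among the 21, which carry multipotent, mast, fetal-liver and megakaryocyte labels. The labels were made from the same counts, so these matches follow in part from the choice of cells and test nothing. The profiles share the library, and the MP profile is the deepest of the dendritic ones.

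Mitosis genes and multipotent progenitor genes stood highest against MP dendritic cells among the gene lists. Of 19 multipotent progenitor genes 18 were higher, with a median log2 ratio of 1.85, and of 1.28 over the 8 at a mean of 20 CPM. This list is a source of the 26 genes whose UMIs gathered in the 19 cells. All 20 genes of the mitosis list were higher in HSC-1 dendritic cells. The 13 measured at a mean of 20 CPM passed 1.5-fold, against 2.77% of all genes compared. A gene can pass that filter by its HSC-1 dendritic level alone, so the count of 13 is partly set by it. The median log2 ratio was 1.67 over all 20, which include genes below that filter, against 0.07 over the 5424 genes that passed it. Ccnb2, a cyclin of the entry into mitosis, stood at 167 CPM (150 to 184) against 25.0 in MP dendritic cells, 6.67-fold higher (5.75 to 7.73). Cenpe, a kinesin of the kinetochore, stood at 121 CPM against 22.9, and Cdc20, an activator of the anaphase-promoting complex, at 53.2 against 9.35. Mki67, the proliferation marker, stood at 248 CPM (228 to 269) against 72.5. These 4 genes lay between the MP and the DCP dendritic cells, where Ccnb2 stood at 415 CPM and Mki67 at 1002.

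All 10 replication-dependent histone genes were also higher, with a median log2 ratio of 0.93. Hist1h1b stood at 88.4 CPM against 37.3 and Hist1h2ap at 44.0 against 17.3. These RNAs lack the usual poly(A) tail, so the assay sees them in part. Of 20 genes of S phase, 17 were above MP dendritic cells, with a median log2 ratio of 0.64, but most were sparse: 4 averaged 20 CPM, and 1 of these was 1.5-fold higher. The replication clamp Pcna stood at 24.6 CPM against 25.7.

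The mitosis RNA was spread unevenly over the cells. At least 10 UMIs of the mitosis list were found in 90 of the 214 cells (42.1%), in 78 of 1268 MP dendritic cells (6.15%) and in 210 of 211 DCP dendritic cells. At 7100 UMIs per cell the shares were 36.3%, 4.12% and 99.0%. The cut at 10 UMIs is a point in a range, and 16 of the 214 cells lay between 8 and 12. Of the 19 cells with progenitor RNA, 6 had at least 10 mitosis UMIs, which leaves 84 cells that reached 10 UMIs for mitosis genes alone and 111 below 10 for both. The 111 cells are not free of such RNA: they held 236 mitosis and 101 progenitor UMIs, and 34 of them had no mitosis UMI.

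**Figure D3:**
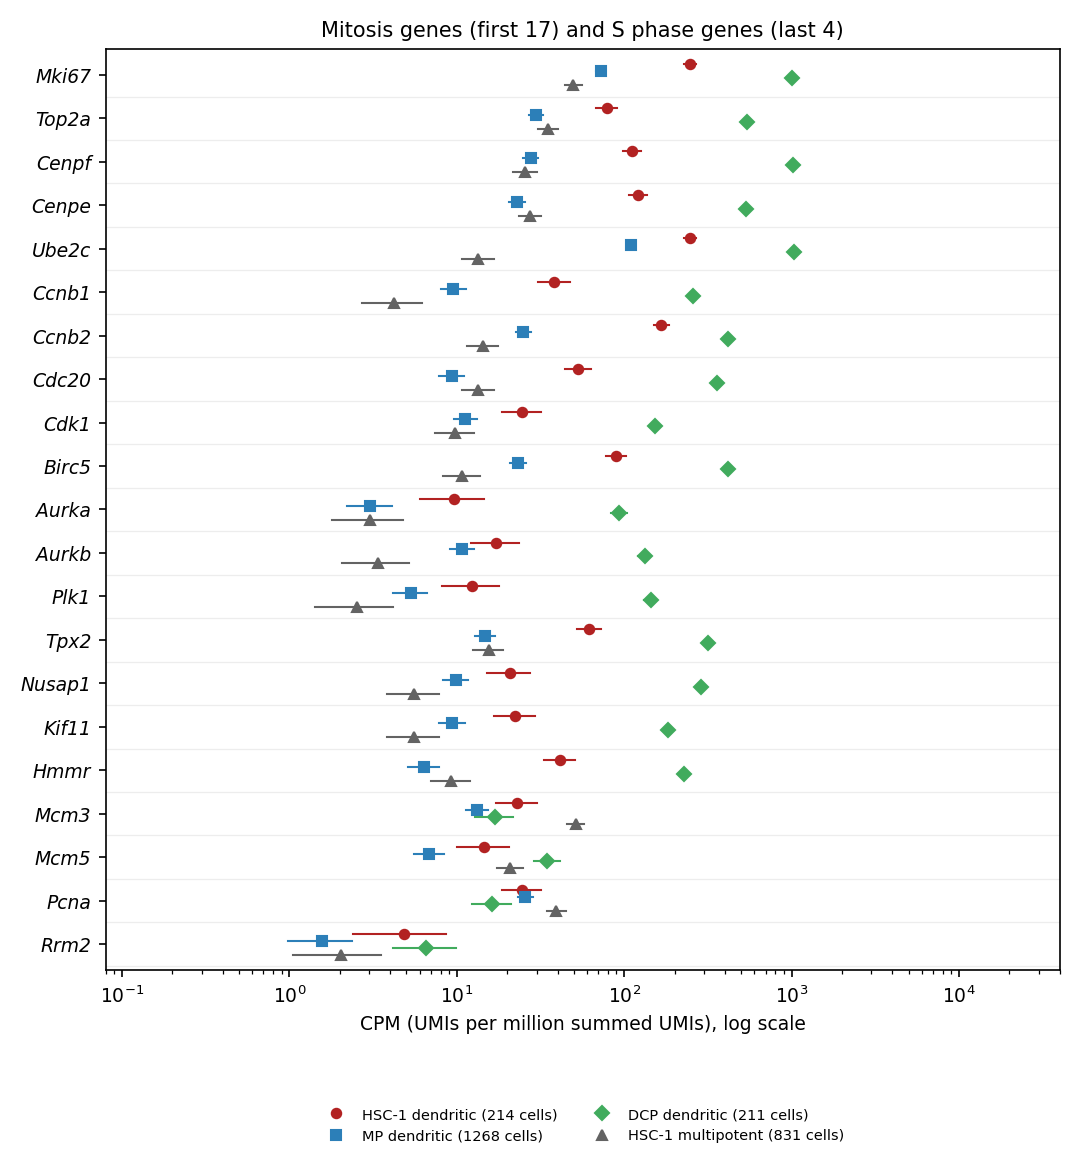
Levels of 17 mitosis genes and 4 S phase genes in CPM (log axis) in 4 groups of spleen LSK cells; points are levels of summed UMIs and bars exact 95% Poisson intervals. For each of the 17 mitosis genes the HSC-1 dendritic cells lie above the MP dendritic and below the DCP dendritic cells (Mki67 at 248, 72.5 and 1002 CPM).

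The 84 and the 111 cells were alike in class II and differed in other genes besides those of mitosis. Core class II genes gave a median of 4.37% and 4.73% of UMIs. Ccnb2 stood at 354 CPM and 21.4 CPM. Egr1, an immediate early transcription factor, went the other way, at 9.72 CPM (4.45 to 18.5) in the 84 cells and 184 (158 to 212) in the 111. Fos stood at 699 and 1133 CPM, and Fosb at 266 and 512. Egr1 was thus as low in the 84 cells as in the DCP dendritic cells (16.6 CPM, 12.6 to 21.5), which nearly all carry mitosis RNA. The linker histone gene Hist1h1c stood at 454 CPM (411 to 499) in the 84 cells and 203 in the 111, against 174 in MP and 81.9 in DCP dendritic cells.

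Set against MP dendritic cells, the 111 cells below both limits had 7 of 5346 genes higher by 2-fold and 5 lower, all chosen after their values were seen. Among the higher genes were Wfdc17, Slc15a4, S100a10, Fgr, Arap2 and Jun, at 81.6 CPM against 30.3 for Wfdc17 and 80.6 against 35.5 for S100a10. The lower genes were Top2a, Sort1, Mki67, Cxcl9 and Cks1b, of which Top2a, Mki67 and Cks1b are cell cycle genes, and Top2a and Mki67 are on the list that the choice of these cells used.

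The 55 genes above 2-fold against MP dendritic cells made up 1.01% of those compared. Of the 55, 12 were on the mitosis list, 4 on the histone list and 4 on the stem or multipotent lists. The mitosis, stem and multipotent lists had 13, 7 and 8 genes measured. The rest of the 55 lay outside these lists. Several of the 55 with high ratios had most of their UMIs in the 19 cells with progenitor RNA. Car2, a carbonic anhydrase of early red cell and other progenitors, stood at 51.5 CPM (42.6 to 61.7) against 6.09, and at 3.58 outside the 19 cells. Car2 is not among the 26 genes that chose those cells, whereas Ifitm1 and Sox4 are. Ifitm1 stood at 80.0 CPM against 11.3, and at 13.3 outside them. Sox4, a transcription factor of progenitors, stood at 62.0 CPM against 11.7, and at 7.67 outside them. Without the 19 cells, 50 of 5385 genes were higher by 2-fold (0.929%), 46 of them among the 55, and 1 was lower (0.0186%). At 1.5-fold 143 were then higher (2.66%) and 42 lower (0.78%), and all 13 mitosis genes measured under the same filter still passed.

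Genes of cDC1 function were lower than in MP dendritic cells by small amounts. Of 17 genes of the cDC1 list 16 were lower, with a median log2 ratio of -0.42 against 0.07 over all genes. Of the 17, 4 were lower by 1.5-fold, against 0.645% of all 5424 genes compared. The share of all genes below 0 is not given. Cxcl9, a chemokine that draws T cells, had the largest difference, at 171 CPM (154 to 189) against 434 (423 to 445), 2.53-fold lower (2.29 to 2.82). A UMI of Cxcl9 was found in 32.7% of HSC-1 dendritic and 44.5% of MP dendritic cells, and in 0.602% of multipotent cells. Tlr3, a sensor of double-stranded RNA, stood at 78.7 CPM against 129, and the integrin gene Itgae at 47.1 against 72.8. Ccr9, a chemokine receptor of gut homing on the plasmacytoid list and not the cDC1 list, stood at 38.3 CPM against 59.3. Of 13 plasmacytoid genes with a UMI, 7 were lower and 6 higher. Cxcl9, Tlr3, Itgae and Ccr9 were each about 1.5-fold lower or more. Irf8 was 1.47-fold lower (1.41 to 1.54) and Xcr1 1.45-fold lower (1.32 to 1.60).

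The cDC1 list lay below MP dendritic cells in each subset of the cells. The median log2 ratio of the cDC1 list to MP dendritic cells was -0.93 in the 19 cells, -0.56 in the 84 and -0.29 in the 111, with 16, 16 and 15 of 17 genes below 0. Over all genes compared the medians were 0.15, 0.10 and 0.01. Against DCP dendritic cells the list stood nearly level, with a median of -0.09 and 12 of 17 genes lower.

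Class II genes had a median log2 ratio to MP dendritic cells of -0.12 over 12 measured, class I genes 0.07 over 18 and genes of the unfolded protein response 0.06 over 16, against 0.07 over all genes. None of these genes passed 1.5-fold, a count near the shares over all genes (2.77% higher, 0.645% lower). Xbp1, a transcription factor of the unfolded protein response, stood at 73.4 CPM against 69.2. Atf4, a transcription factor of the integrated stress response, stood at 108 CPM (95.1 to 123) against 105 in MP dendritic and 131 in multipotent cells. Ddit3, which encodes CHOP, was below the 20 CPM filter against MP dendritic cells, at 15.8 CPM (11.1 to 21.9) and 8.85, and stood at 33.0 in multipotent cells. Eif2ak3, the stress sensor PERK, was sparse too, at 12.3 CPM (8.18 to 17.8) against 15.2 and 8.93. Hspa5, the main chaperone of the endoplasmic reticulum, stood at 425 CPM (399 to 453) against 355 and 265. Of 13 interferon-stimulated genes measured, 3 were 1.5-fold lower, namely Cxcl9, Gbp4 and Cxcl10.

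**Figure D4:**
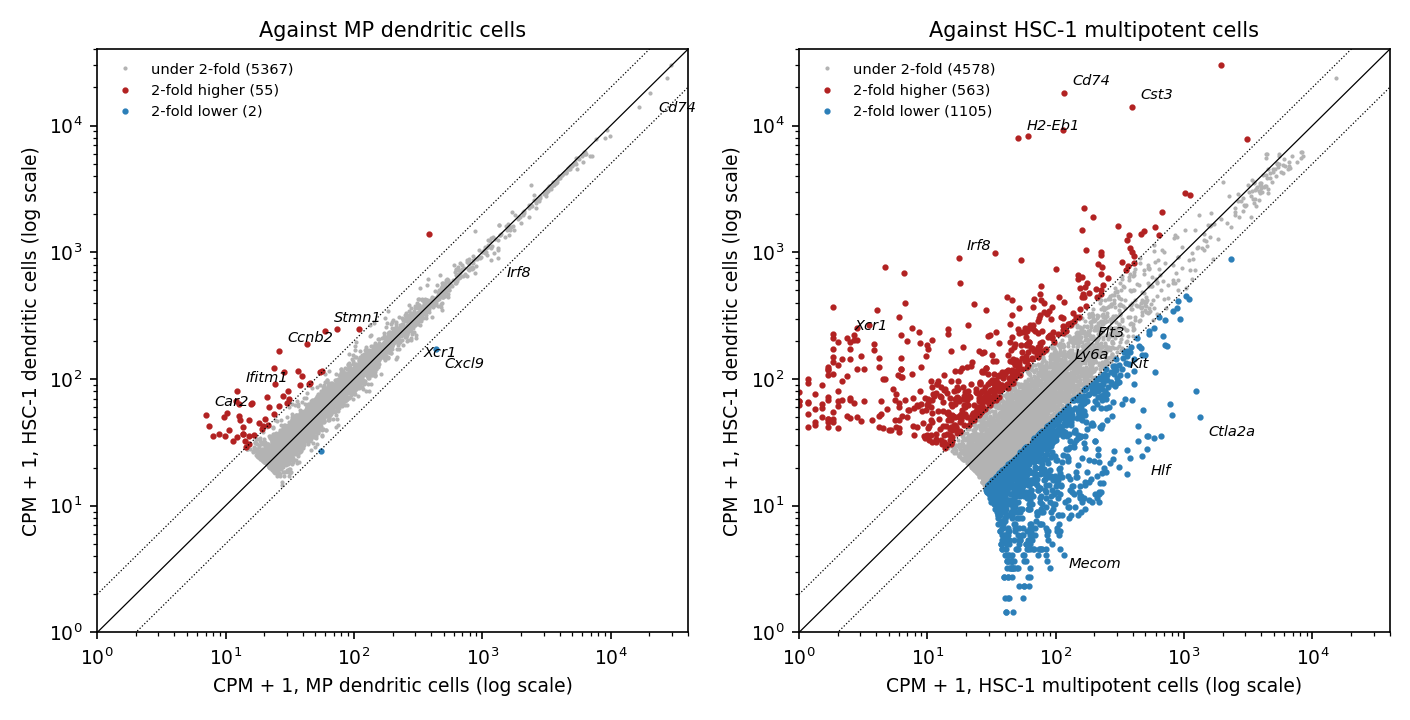
CPM + 1 of each compared gene (log axes) in HSC-1 dendritic cells against MP dendritic cells (left, 5424 genes) and HSC-1 multipotent cells (right, 6246 genes); solid lines mark equality and dotted lines 2-fold. Against MP dendritic cells 55 genes lie 2-fold or more above and 2 below, and against HSC-1 multipotent cells 563 are higher and 1105 lower.

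The HSC-1 multipotent cells, the most numerous label of the same cluster, were far more distant. The other labels of HSC-1 entered no comparison gene by gene. Against HSC-1 multipotent cells, 563 of 6246 genes were higher by 2-fold (9.01%) and 1105 lower (17.7%), with a median log2 ratio of -0.25. The higher genes made up 33.8% of those past 2-fold, but 56.3% (893 higher, 694 lower) under TMM scaling, which moved the median to 0.11. At 1.5-fold 978 genes were higher (15.7%) and 1947 lower (31.2%). Without the 19 cells with progenitor RNA, 609 of 6214 genes were higher by 2-fold (9.8%) and 1198 lower (19.3%), and at 1.5-fold 1038 (16.7%) and 2047 (32.9%). The highest ratios belonged to Aif1, a calcium-binding protein of myeloid cells, at 371 CPM against 0.843, and to Plbd1, at 765 against 3.71. All 13 class II genes with a UMI and 16 of 17 cDC1 genes were higher, which the dendritic label used to choose the cells bears on. The lowest belonged to Pear1, Pdgfrb and Fam69b, and Pdgfrb stood at 3.08 CPM against 115.

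Mitosis genes were higher than in the multipotent cells too. All 20 of the list were above 0, with Ccnb2 at 167 CPM against 14.3. All 13 measured passed 1.5-fold, against 15.7% of all genes compared, though their HSC-1 dendritic levels could carry them past the filter. Genes of S phase stood on the other side, with 5 of 7 measured 1.5-fold lower, against 31.2% of all genes compared. Mcm3, a subunit of the replicative helicase, stood at 22.9 CPM against 51.2.

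Against the DCP dendritic cells, 50 of 5542 genes were higher by 2-fold (0.902%) and 200 lower (3.61%). At 1.5-fold the counts were 241 (4.35%) and 439 (7.92%). Without the 19 cells they were 40 (0.728%) and 202 (3.68%) of 5491 genes at 2-fold, and 215 (3.92%) and 453 (8.25%) at 1.5-fold. All 20 mitosis genes were 1.5-fold lower, with a median log2 ratio of -2.51. Nusap1, a spindle protein, stood at 20.7 CPM (15.2 to 27.5) against 290. Immediate early and NF-kB genes stood higher, 10 of 16 measured by 1.5-fold and all 20 of the list above 0, with Egr1 at 114 CPM (101 to 129) against 16.6 and Fos at 906 against 359. None of the 12 measured class II genes passed 1.5-fold.

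The deposited cell table also gives each cell scores, whose making is not given in the sources used here. Median pseudotime was 9.31 over the 209 HSC-1 dendritic cells with a value, 5.81 in multipotent, 11.7 in DCP dendritic and 15.7 in MP dendritic cells. The myeloid score had a median of 0.395, against 0.0455, 0.357 and 0.426. The stemness score had a median of 0.152, above the -0.00041 of the multipotent cells, with 0.165 in DCP dendritic and 0.119 in MP dendritic cells. It thus stood opposite to the RNA of stem cell regulators given above. The ER stress score was 0.139 here and in MP dendritic cells, and 0.0897 in multipotent cells. A score is a scale of the authors, and only its order is read here.

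The 59 MP dendritic cells of the bone marrow share the label, and no difference from them was measured beyond these levels. Cd74 stood at 10768 CPM and Xcr1 at 256 in them, against 17982 and 208 in the HSC-1 dendritic cells of the spleen. Mki67 stood at 443 CPM against 248.

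In the spleen, the 71 HSC-3 dendritic cells also carry a stem cell cluster name. Cd74 stood at 15135 CPM in them, Irf8 at 843 and Xcr1 at 178, near the levels of the HSC-1 dendritic cells. Mki67 stood at 1003 CPM, 70 of the 71 cells had at least 10 mitosis UMIs, and Scrublet marked 7 of them. Within HSC-1, among labels of at least 10 cells, class II RNA at this level was found under 1 other label, a macrophage label of 12 cells with a median of 4.30% of UMIs. The 831 multipotent, 147 mast, 141 fetal-liver and 91 megakaryocyte progenitor cells had medians of at most 0.0217%.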

How the data were processed

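The authors deposited whole-number UMI counts per gene and cell. Per the series design text, about 27000 reads per cell were aligned to mm10 and counted with Cell Ranger 3.1.0; the submitters' processing notes list Seurat 3.1.5 and mm9, which conflicts with it. The deposited cell table gives each cell a cluster, labels, pseudotime and several score values. How cells were filtered before deposit is not given in the sources used here, and none were left out here.

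Counts were summed per group and scaled to CPM over all genes. Ratios are log2 of CPM + 1, for genes whose 2 group levels averaged 20 CPM or more, and were read by size (2-fold; 1.5-fold for 26 gene lists). No fold is given with 3 or fewer UMIs on a side. Symbols came from GENCODE M21 for 30934 of 31053 identifiers. Scrublet ran in scanpy 1.11.5 with an expected 6% of doublets. The code was tested on simulated data.

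Named genes are the 12 highest and 12 lowest ratios of each of 3 comparisons with at least 50 CPM on a side, leaving out Gm and Rik names, a set of marker genes, and list members; Wfdc17, Slc15a4, S100a10, Fgr, Arap2, Sort1 and Cks1b were named after their values were seen. The cells and the lists were chosen with earlier results of these data known. Bone marrow entered no comparison across genes and is given as levels only, and the integrated matrix was not used. Results for some genes are not reported here.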

Additional observations from a re-analysis of the deposited data

How the results depend on the processing

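With 1 library per tissue, counting error is the only error measured, and rarely detected genes were not comparable at this depth. No paired analysis was possible because each tissue gave 1 library. Of the values under other settings, 879 kept their direction and size, 151 moved and 3 turned.

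Against MP dendritic cells, the 55 genes higher by 2-fold became 108 with a filter at 10 CPM, 17 at 50 CPM and 514 with no filter. With the MP dendritic cells left whole, they became 20 without the HSC-1 dendritic cells with at least 10 mitosis UMIs. They became 7 without the HSC-1 dendritic cells with at least 10 mitosis or progenitor UMIs. The 2 lower genes became 5, 1 and 105 under those filters, and 4 and 5 without those cells. They became 1 with a pseudocount of 5 CPM, with thinned cells, without cells marked by Scrublet and without the 19 cells.

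Against HSC-1 multipotent cells, the 563 higher genes became 893 under TMM scaling, 334 at 50 CPM and 1187 with no filter. The 1105 lower genes became 694 under TMM scaling, 1753 at 10 CPM, 434 at 50 CPM and 3754 with no filter.

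Against DCP dendritic cells, the 50 higher genes became 117, 19 and 698 under the filters at 10 CPM, 50 CPM and none. With the DCP dendritic cells left whole, they became 109 without the HSC-1 dendritic cells with at least 10 mitosis UMIs. They became 89 without the HSC-1 dendritic cells with at least 10 mitosis or progenitor UMIs. The 200 lower genes became 109 at 50 CPM, 586 with no filter, and 305 and 326 without those cells.

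Without cells marked by Scrublet, the log2 ratio of Ctla2a turned to -0.12 against MP dendritic and -0.075 against DCP dendritic cells, and the median of the multipotent progenitor list turned to -0.051 against MP dendritic cells. The settings without HSC-1 dendritic cells with at least 10 mitosis or progenitor UMIs were chosen after seeing the data. They took cells from that side only. The filters change which genes are compared; the cause of the other shifts was not tested.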
